A study of Mus musculus with 3 samples.

Results

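The genes examined here are 7 core components of the hedgehog pathway, Smo, Ptch1, Gli1, Gli2, Gli3, Sufu and Hhip, out of 21887 protein-coding genes of the mouse. They were chosen by name, with earlier results of these data known, because the highest peak of the Foxc2 list lies at the start of Smo. Every peak was counted whose summit (the base of highest enrichment) lay in the annotated span of one of these genes or within 50 kb of either end. The rule gave 5 of 5207 Foxc1 peaks and 7 of 2878 Foxc2 peaks on chromosomes 1 to 19, X and Y. The peaks come from chromatin immunoprecipitation and sequencing (ChIP-seq) of the forkhead transcription factors Foxc1 and Foxc2 in kidney glomeruli, the capillary tufts that filter blood. The glomeruli were taken from C57BL/6 mice aged 8 weeks and collected on magnetic beads, so podocytes, endothelium and mesangium were present together, and no genotype or treatment is named for either antibody. There was 1 library for each antibody (D8A6 from CST for Foxc1 and AF6989 from R&D Systems for Foxc2), the input DNA library was not analysed here, and peak lists carry no expression values against which the tissue could be checked. Without a replicate there is no spread between animals, depth is unknown, and all values below describe these libraries with no test.

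Hedgehog ligands act through the receptor Patched, encoded by Ptch1, which in the absence of ligand holds the membrane protein Smoothened (Smo) inactive. Active Smoothened moves into the primary cilium and releases the Gli transcription factors from Sufu, a cytoplasmic inhibitor. Gli2 acts mainly as an activator and Gli3 mainly as a repressor, while Gli1, Ptch1 and the ligand-binding decoy Hhip are transcribed in response to the signal. In the kidney the pathway is best known from development, where ligand from the collecting system patterns the surrounding stroma and ureteric smooth muscle.

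Both antibodies met at a single place among the 7 genes, the transcription start of Smo. The RefSeq promoter of Smo (GRCm38.p6, the assembly called mm10, plus strand, chr6:29735247-29735546) runs from 250 bases before the start site to 50 bases after it. It is shown because it holds both summits, with the stretch from 10 bases before the first summit to 10 bases after the last in capitals (bases 257 to 279 of 300).

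Smo: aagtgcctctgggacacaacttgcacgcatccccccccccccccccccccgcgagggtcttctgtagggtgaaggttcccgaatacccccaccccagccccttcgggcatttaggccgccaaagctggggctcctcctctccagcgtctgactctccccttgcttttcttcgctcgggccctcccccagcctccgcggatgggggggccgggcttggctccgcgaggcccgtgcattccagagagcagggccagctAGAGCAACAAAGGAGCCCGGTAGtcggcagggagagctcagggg

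The Foxc2 summit fell on base 267 of this sequence and the Foxc1 summit on base 269, so the summits were 2 bp apart. The capitals contain AACAAAG at bases 262 to 268, the letters that HMG-box factors of the Sox and Tcf families recognise. This word was looked for only after the sequence had been seen, and 5.85% of 32817 promoters in the RefSeq table hold it on either strand. Of promoters with a Foxc1 summit 6.82% hold it, of those with a Foxc2 summit 1.61%, and of those with both 3 of 39. Neither the forkhead words TGTTTAC and TATTTAC nor the shorter forkhead core TAAACA occurred on either strand of the 300 bases (TGTTTAC holds the reverse complement of the core, so these words are not independent). At least one of them occurred in 15.8% of all promoters, in 53.2% of the 220 promoters with a Foxc1 summit, in 6.93% of the 808 with a Foxc2 summit and in 20 of the 39 with both. The Sp and Klf word GGGCGG was missing as well, although 87.0% of the promoters with a Foxc2 summit and 33 of the 39 with both hold it, against 35.6% of all. GLI (GACCACCCA), ETS (CCGGAAGT), CCAAT box (CCAAT) and E-box (CACGTG) words did not occur either. Of all promoters, 0.253, 3.89, 37.4 and 7.15% hold them, in that order. Upstream, bases 31 to 50 are an unbroken run of 20 C. The GC content was 67.7%, higher than in 86.8% of promoters. The median GC was 70.3% in promoters with a Foxc2 summit, 66.7% in those with both and 52.7% in all. The ratio of observed to expected CpG was 0.504, against a median of 0.897 in promoters with a Foxc2 summit and 0.383 in all. The window holds 280 of the 518 bases of the Foxc1 peak and 243 of the 593 bases of the Foxc2 peak. Sequence further into the gene was not searched, so the missing words refer to these letters alone.

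Smo, the signal transducer itself, carried 1 Foxc1 peak and 3 Foxc2 peaks. The Foxc2 peak at its start (chromosome 6, 29735304 to 29735896) had a fold enrichment of 16.0 over the local background of the authors' peak caller and a minus log10 q of 73.2. It ranked 1 of 2878 by either value, as the choice of the gene implies, and the next peak of that list had a fold of 15.6. The Foxc1 peak (29735267 to 29735784) had a fold of 29.0 and a minus log10 q of 200. It was not used to choose Smo, and it ranked 35 of 5207, above 99.3% of its list. The pair shared 481 bp. A further Foxc2 peak lay inside Smo, 8.73 kb past the start (29744064 to 29744361). Its fold was 5.06, at rank 509, but by minus log10 q (19.4) its rank was 120. The last Foxc2 peak counted for Smo (29768195 to 29768611, fold 4.33) lay 7.22 kb beyond the gene, at 0.206 kb from an end of the neighbour Ahcyl2, and its summit fell inside that gene. Tspan33, on the other side, has its span 17.0 kb from the summits at the Smo start and had no summit closer. So of the 3 Foxc2 peaks the first and the second have Smo as nearest gene, and the third has Ahcyl2.

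**Figure D1:**
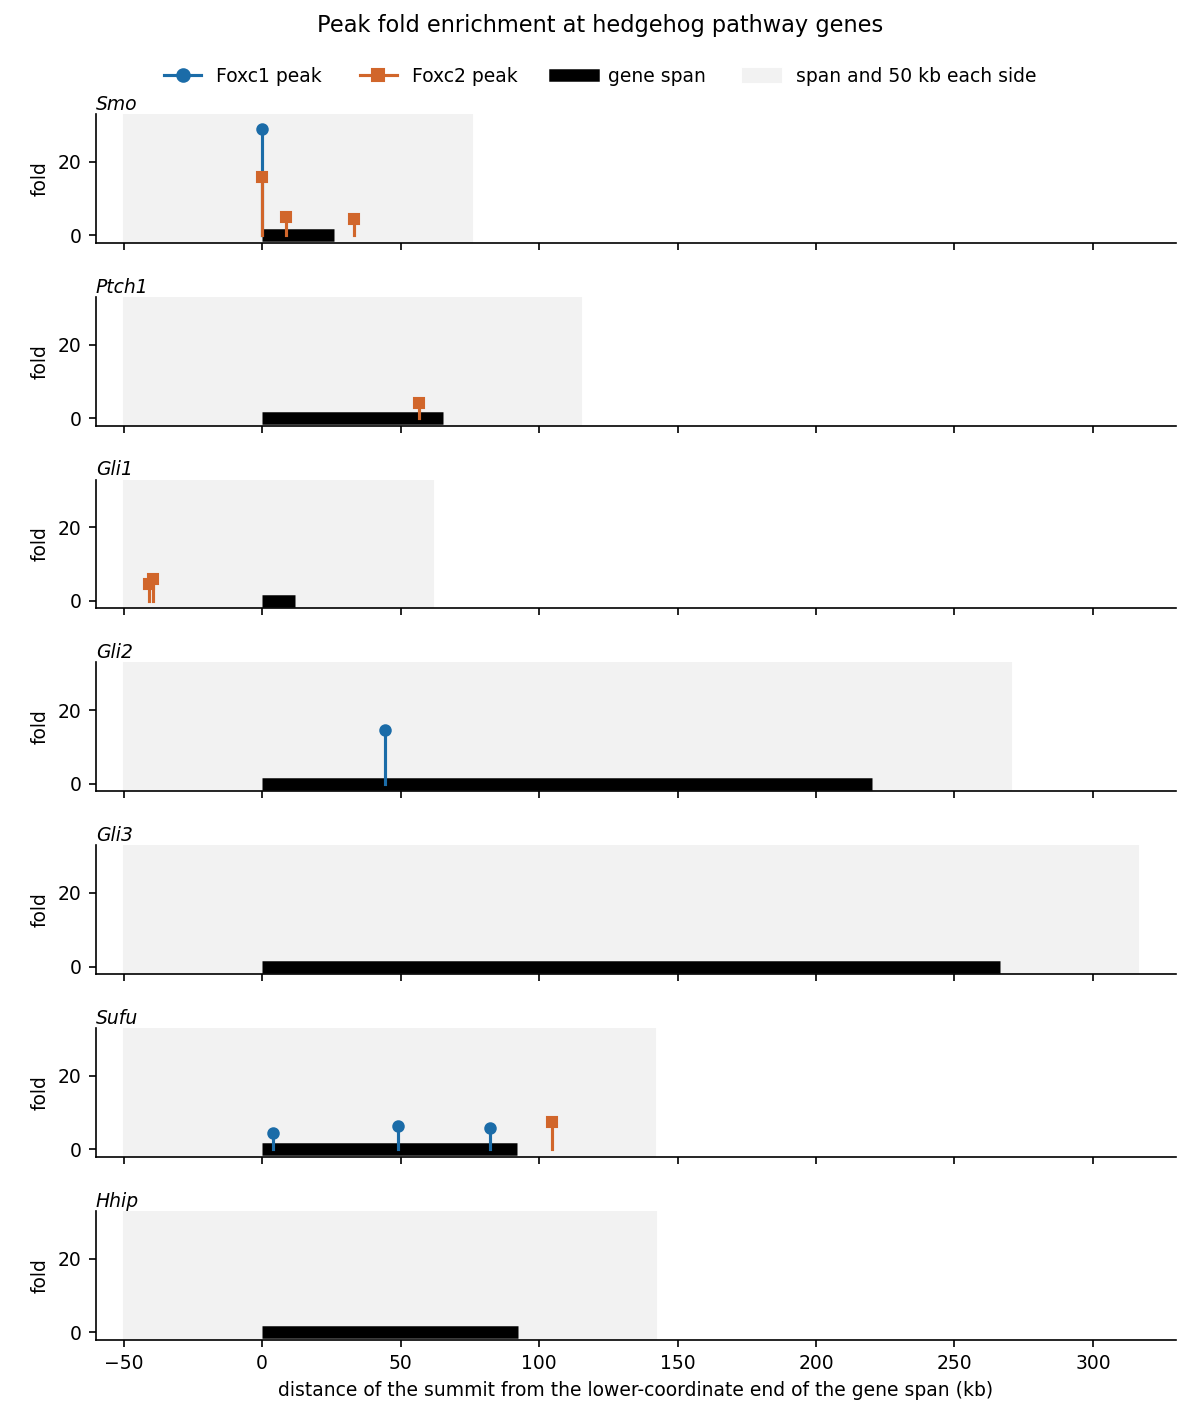
Fold enrichment (vertical axis, fold over local background) of every Foxc1 peak (blue circles) and Foxc2 peak (orange squares) against the distance of its summit from the lower-coordinate end of each gene span (horizontal axis, kb), with 1 panel per gene, the span as a black bar and the 50 kb margins in grey. At Smo the Foxc1 peak of fold 29.0 and the Foxc2 peak of fold 16.0 stand on the same position, while Gli3 and Hhip hold no peak.

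Of the receptors for the ligand, Ptch1 had 1 Foxc2 peak and Hhip had no peak. The Ptch1 peak (chromosome 13, 63564825 to 63565126) lay inside the gene, 0.721 kb past the start site of its RefSeq promoter and 8.45 kb from the outer end of the span. Its fold of 4.13 was close to the middle of the Foxc2 list, above 52.6% of the peaks. The nearest Foxc1 summit to Ptch1 was 70.0 kb away and so beyond the margin (63643347 to 63643698, fold 6.64), with Ptch1 still the nearest protein-coding gene. Hhip, the decoy (chromosome 8, 79965850 to 80058060), was far from both lists. Its nearest summits were 381 kb away for Foxc1 and 326 kb for Foxc2.

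Sufu, the inhibitor of the Gli factors, had the most Foxc1 peaks of the 7 genes. All 3 lay inside the gene on chromosome 19, at 3.85, 49.0 and 82.1 kb past the start site, with folds of 4.43, 6.33 and 5.70. The strongest of them ranked 1402 and exceeded 71.8% of the Foxc1 list, and the weakest exceeded 34.6%. None was overlapped by a Foxc2 peak. The Foxc2 peak counted for Sufu (46501253 to 46502198, fold 7.52, rank 81) was the second highest Foxc2 peak of the 7 genes and, at 946 bp, the widest. It lay 12.6 kb beyond the far end of Sufu and 0.204 kb outside an end of Trim8, which encodes a ubiquitin ligase. The nearest Foxc1 summit, the last of the 3 inside Sufu, was 22.4 kb from it. Sufu and Smo were therefore the genes with summits of both antibodies, and the peaks met in Smo alone.

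The Gli genes differed from one another. Gli2, on chromosome 1, held a strong Foxc1 peak (118878101 to 118878671, fold 14.5, minus log10 q 90.6, rank 244, above 95.3% of the list). It lay deep inside the gene, 175 kb past the start site and 44.3 kb from the other end of the span, and no other protein-coding gene was within 50 kb of its summit. The nearest Foxc2 summit was 573 kb from Gli2. Gli1 had no Foxc1 summit within 50 kb, and the nearest was just outside the margin, at 53.5 kb (fold 4.75), in R3hdm2. Its 2 Foxc2 peaks were inside the margin, at 39.4 and 40.8 kb, with folds of 5.85 and 4.64. Both fell in Mbd6, which encodes a protein with a methyl-CpG-binding domain, and the stronger of them lay 0.326 kb from the stress-response gene Ddit3. Dctn2, Mars1, Kif5a and Arhgap9 were also closer to these summits than Gli1 was. Gli3, with the longest span of the 7 at 266.3 kb, had no peak. Its nearest summits were 1727 kb away for Foxc1 and 2025 kb for Foxc2, the longest such distances among the 7 genes.

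Counted as genes, 3 of 7 had a Foxc1 summit (Smo, Gli2 and Sufu, 42.9%), and 29.3% of all protein-coding genes had one by the same rule. With Foxc2 the count was 4 of 7 (Smo, Ptch1, Gli1 and Sufu, 57.1%), against 23.2% of all genes. Summits of both occurred at 2 of 7 (28.6%), against 12.5% of all, and summits of at least one at 5 of 7, against 39.9%. These shares rest on 7 genes, of which Smo was chosen for its peak, and nothing particular to the pathway is read from them. The share near a Foxc1 summit was highest in the longest genes, which was not so for Foxc2. Of genes from 108.5 to 2390 kb, the class of Gli2 and Gli3, 47.0% were near a Foxc1 summit and 27.7% near one of Foxc2. From 57.1 to 108.5 kb, the class of Ptch1, Sufu and Hhip, the shares were 37.8 and 30.1%. In the class of Smo, from 24.6 to 36 kb, they were 30.1 and 25.4%. All 5 Foxc1 peaks lay inside the gene they were counted for. Of the 7 Foxc2 peaks 3 did, and the other 4 had another gene as nearest span, a difference that was not tested. Over the whole lists, 56.4% of Foxc1 and 66.3% of Foxc2 summits lay inside the span of some protein-coding gene, which is a wider measure. By that measure the Foxc2 summits in Ahcyl2 and Mbd6 were inside a gene as well. Of the Foxc2 summits counted here, only the one near Trim8 was not. When each peak was given to its nearest gene alone, the Foxc1 count stayed at 3 of 7 with the same genes (14.0% of all genes), and the Foxc2 count fell to Smo and Ptch1, 2 of 7 (10.1% of all genes). Of the peaks, 1 of 5 Foxc1 and 1 of 7 Foxc2 peaks were overlapped by the other list, against 8.20% of 5207 and 14.8% of 2878.

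**Figure D2:**
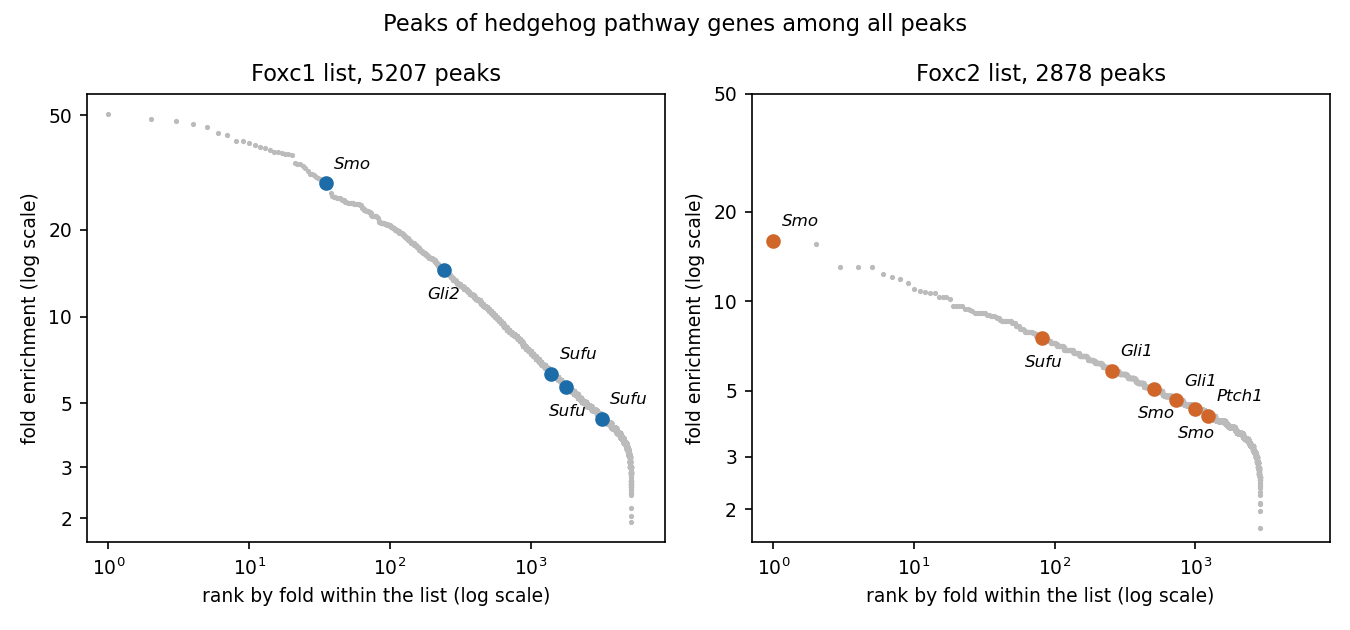
Fold enrichment (vertical, log scale) against rank within the list (horizontal, log scale) for all Foxc1 peaks (left) and all Foxc2 peaks (right), with peaks of the 7 genes as coloured points. Smo stands at rank 35 and rank 1, Gli2 at rank 244 in the Foxc1 list and the peak between Sufu and Trim8 at rank 81 in the Foxc2 list, while the other points lie lower.

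All 7 Foxc2 peaks had a fold above the median of their list, 3.97, and 4 of the 5 Foxc1 peaks a fold above 4.90, the median of theirs. The highest Foxc2 peak was above it by the choice of Smo, and 4 of the 7 had another gene as nearest span. By minus log10 q the Ptch1 peak, at 5.29, was at the median of the Foxc2 list and not above it. Folds of the peaks counted here spread widely, from 4.43 to 29.0 for Foxc1 and from 4.13 to 16.0 for Foxc2. Folds of the antibodies were not compared with each other, since each list has its own library and background.

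A total of 172 protein-coding genes had a summit of both antibodies within 1 kb of the same end of the gene. The 5 most like Smo by the log2 folds of these peaks, over 2 libraries, were Peli2, Dusp1, Zfp212, Inppl1 and Klf7, at distances of 1.30, 1.49, 1.51, 1.60 and 1.70 log2 units. Peli2, which encodes a ubiquitin ligase of innate immune signalling, had a Foxc1 fold of 22.9 and a Foxc2 fold of 6.71. Zfp212, a zinc finger gene, had a stronger Foxc1 peak than Smo, at 46.5 and rank 4, with a Foxc2 fold of 6.30, and like Smo it had summits 2 bp apart. Inppl1, which encodes a lipid phosphatase, came nearest of these 5 in Foxc2 fold, at 10.7, with a Foxc1 fold of 10.3. Outside the 5, Nrep had a Foxc2 fold of 15.6 and a Foxc1 fold of 3.29 (chosen after its values were seen). Dusp1, a phosphatase gene, and Klf7, a Kruppel-like factor gene, had Foxc1 folds of 25.7 and 24.4 with Foxc2 folds of 5.73 and 4.99. Dusp1 lies on the minus strand and its pair was at the lower-coordinate end, so unlike in Smo it was not at the start site. The promoter of Dusp1 held a Foxc2 summit of fold 4.29 and no Foxc1 summit.

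**Figure D3:**
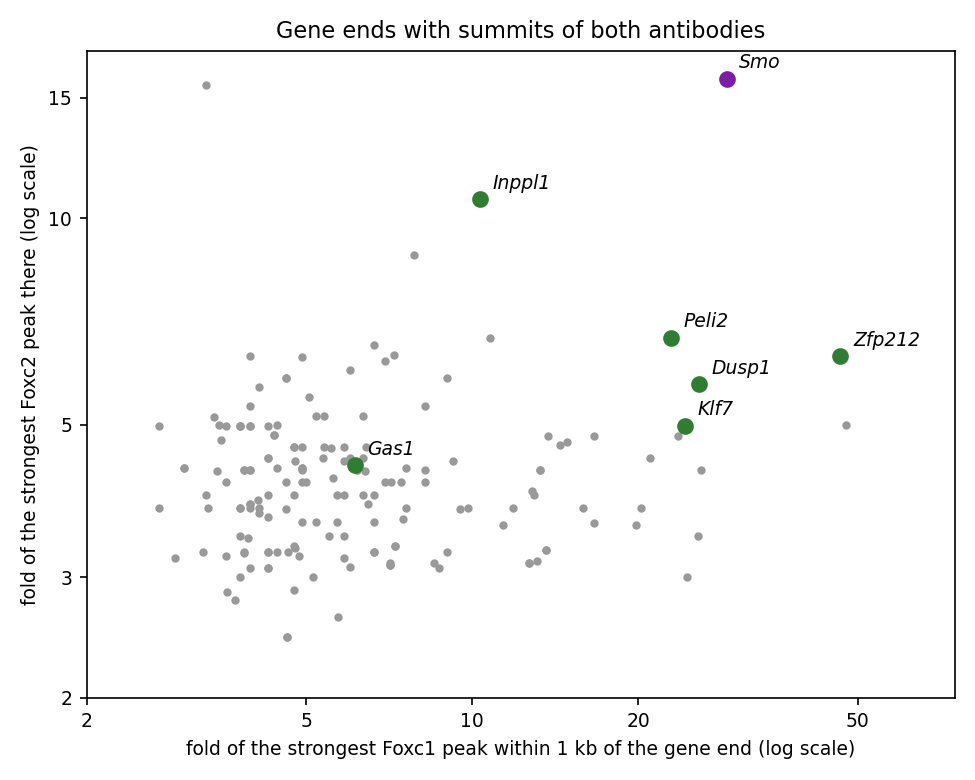
Fold of the strongest Foxc2 peak (vertical, log scale) against that of the strongest Foxc1 peak (horizontal, log scale) within 1 kb of the same gene end, 1 point per gene end with both, for 172 genes. Smo (purple) stands alone at the upper right, at 29.0 and 16.0, with its 5 nearest genes and the co-receptor gene Gas1 in green.

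The promoter of Peli2 (GRCm38.p6, plus strand, chr14:48120619-48120918) is shown beside that of Smo because it differs in the letters searched. It holds the forkhead word TGTTTAC at bases 134 to 140, in capitals below. The promoters of the other genes most like Smo (Dusp1, Zfp212, Inppl1 and Klf7) held none of the forkhead words. That of Zfp212 also lacked GGGCGG, as that of Smo did, and held the Foxc1 summit alone, at base 299. No summit of either antibody fell in the promoters of Inppl1 and Klf7, and that of Dusp1 held only the Foxc2 summit of fold 4.29. For Inppl1, Klf7 and Dusp1 the missing words therefore do not refer to the sequence under the paired summits.

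Peli2: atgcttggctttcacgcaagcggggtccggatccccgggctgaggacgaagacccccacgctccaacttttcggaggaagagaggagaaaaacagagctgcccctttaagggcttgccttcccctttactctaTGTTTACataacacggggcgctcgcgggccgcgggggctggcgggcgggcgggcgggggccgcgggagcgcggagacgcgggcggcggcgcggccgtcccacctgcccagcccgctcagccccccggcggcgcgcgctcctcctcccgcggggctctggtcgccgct

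The Foxc1 summit of Peli2 fell on base 129, next to that word, and the Foxc2 summit on base 184, inside a stretch with repeated GGGCGG. Of the 7 hedgehog genes 6 had an entry in the promoter table, and Gli1 had none. Smo was the one gene of the 6 with a summit in the window. No promoter of the 6 held a forkhead word or the GLI word, which 15.8 and 0.253% of all promoters hold. GGGCGG occurred in those of Ptch1, Gli2, Gli3, Sufu and Hhip, and GC content ranged from 56.3% in Sufu to 76.3% in Ptch1.

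Around the 7 genes, 61 further genes of the pathway were listed by role with earlier results of these data known. For Foxc1 the count was 26 (42.6%) and for Foxc2 also 26 (42.6%), with 15 genes near both and 24 near neither. The same shares over all protein-coding genes were 29.3 and 23.2%. A gene could be counted through a peak nearer to a neighbour: of 36 Foxc1 and 45 Foxc2 assignments, 13 and 22 had another gene as nearest span. The median span of the list was 48.0 kb, against 17.2 kb for all protein-coding genes.

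Of 3 ligand genes 1 had a Foxc1 summit (33.3%, against 29.3% of all protein-coding genes). None had a Foxc2 summit, against 23.2% of all, and nothing is read from so few genes. Shh and Ihh had no peak, and Dhh had 1 Foxc1 peak of fold 4.59 at 49.2 kb, almost at the margin. Of 7 genes for ligand processing and release, Disp2 had 1 peak of each antibody (folds 5.06 and 2.88, at 18.1 and 34.1 kb) and Disp3 had 1 Foxc2 peak. These were shares of 14.3% for Foxc1 and 28.6% for Foxc2, and both Disp2 peaks were nearer to neighbours. Disp1, Hhat and the Scube genes had none.

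Among 6 genes for receptors, co-receptors and ligand-binding proteins, 3 were near a Foxc1 summit and 3 near one of Foxc2. Each share was 50%, against 29.3 and 23.2% of all protein-coding genes. Cdon and Gas1, whose products bind hedgehog ligand together with Patched, had overlapping peaks. In Cdon the Foxc1 peak (chromosome 9, 35467305 to 35467994) had a fold of 18.7 and rank 131, and the Foxc2 peak (35467457 to 35467836) a fold of 7.39 and rank 83. Both lay inside the gene, 40.0 kb from an end, and a further Foxc2 peak of fold 3.71 lay 0.058 kb from the other end. Gas1 had overlapping peaks at its start site, of fold 6.13 for Foxc1 and 4.36 for Foxc2, and another Foxc1 peak of fold 5.54 at 0.567 kb beyond its far end. Boc, the paralogue of Cdon, had 1 Foxc2 peak with a fold of 5.33 and a summit in the gene, 0.514 kb from its edge. Lrp2 and Gpc3 had none. The start of Gas1 thus carried both antibodies as that of Smo did, at lower ranks of 1569 and 984. Its promoter (GRCm38.p6, minus strand, chr13:60177486-60177785) is shown with the stretch around the summits in capitals (bases 150 to 235).

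Gas1: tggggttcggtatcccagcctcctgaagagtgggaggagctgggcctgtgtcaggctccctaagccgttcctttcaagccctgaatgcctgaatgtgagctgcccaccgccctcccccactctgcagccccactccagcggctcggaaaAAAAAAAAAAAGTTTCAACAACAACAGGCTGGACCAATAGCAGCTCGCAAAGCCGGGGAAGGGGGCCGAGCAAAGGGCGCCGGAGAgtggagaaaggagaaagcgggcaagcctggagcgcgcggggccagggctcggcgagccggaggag

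The Foxc1 summit lay on base 160 and the Foxc2 summit on base 225, 65 bp apart. As in Smo, none of the forkhead words occurred. Unlike Smo, it held GGGCGG and a CCAAT box once each.

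Of 14 genes for cilium function and the traffic of Smoothened, 4 were near a Foxc1 summit (28.6%) and 5 near one of Foxc2 (35.7%). The shares over all protein-coding genes were 29.3 and 23.2%. Arrb1, which encodes a beta-arrestin linked to Smoothened traffic, had 6 Foxc1 peaks with folds from 3.80 to 19.8 and 5 Foxc2 peaks with folds from 3.17 to 4.81, of which 2 of each overlapped. Kif27 had 4 Foxc2 peaks, with folds of 4.17 or less, and only the strongest had Kif27 as nearest gene. Kif7, the ciliary kinesin of the pathway, had 1 Foxc1 peak at 11.5 kb, and Kif3a, Ift88, Evc, Evc2, Efcab7 and Gpr161 had none.

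The kinases and ubiquitin ligase parts had summits most often, 14 of 22 with Foxc1 and 13 of 22 with Foxc2, and 9 with both. The shares were 63.6 and 59.1%, against 29.3 and 23.2% of all protein-coding genes, some through peaks nearer to neighbours. Csnk1a1, a casein kinase that phosphorylates Gli proteins, had 2 Foxc1 peaks (folds 11.1 and 5.70) and 4 Foxc2 peaks, of which 3 lay 44.7 to 49.5 kb from the gene. Csnk1d had 3 Foxc1 peaks, the strongest of fold 17.2 inside the gene, and no Foxc2 peak. Mgrn1, a ubiquitin ligase of Smoothened, had overlapping peaks 5.5 kb outside the gene (folds 13.3 and 4.30), with Ubald1 as the nearest gene. Cul3, Spop, Prkar1a, Stk36 and Csnk1e were near peaks of both antibodies that did not overlap. Only Cul3 was the nearest gene of all its peaks. The peaks of Stk36, the Foxc2 peaks of Spop and the Foxc1 peak of Prkar1a were nearer to neighbours. So were the Foxc1 peak and the stronger Foxc2 peak of Csnk1e. Gsk3a had 1 Foxc1 peak of fold 3.00 at 48.7 kb and 3 Foxc2 peaks, the weakest with a fold of 3.61. All of these had Erf or Cic as nearest gene. Smurf2 had 3 Foxc2 peaks, 1 of them 0.034 kb from an end of the gene and the others nearer to neighbours.

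Of 9 common targets, 3 were near a Foxc1 summit and 3 near one of Foxc2, with 2 near both. Each antibody thus had 33.3%, against 29.3 and 23.2% of all protein-coding genes. Foxf1 and Foxl1 are neighbours and rested on the same pair of peaks (folds 4.27 and 3.61). Mycn had 1 Foxc1 peak, and the cell survival gene Bcl2 had 1 Foxc2 peak of fold 3.15. The cell cycle genes Ccnd1, Ccnd2 and Cdk6 and the targets Nkx2-2 and Hand2 had none. Many of these genes are used in other pathways as well, the kinases above all, so the counts are not those of a hedgehog-specific group.

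**Figure D4:**
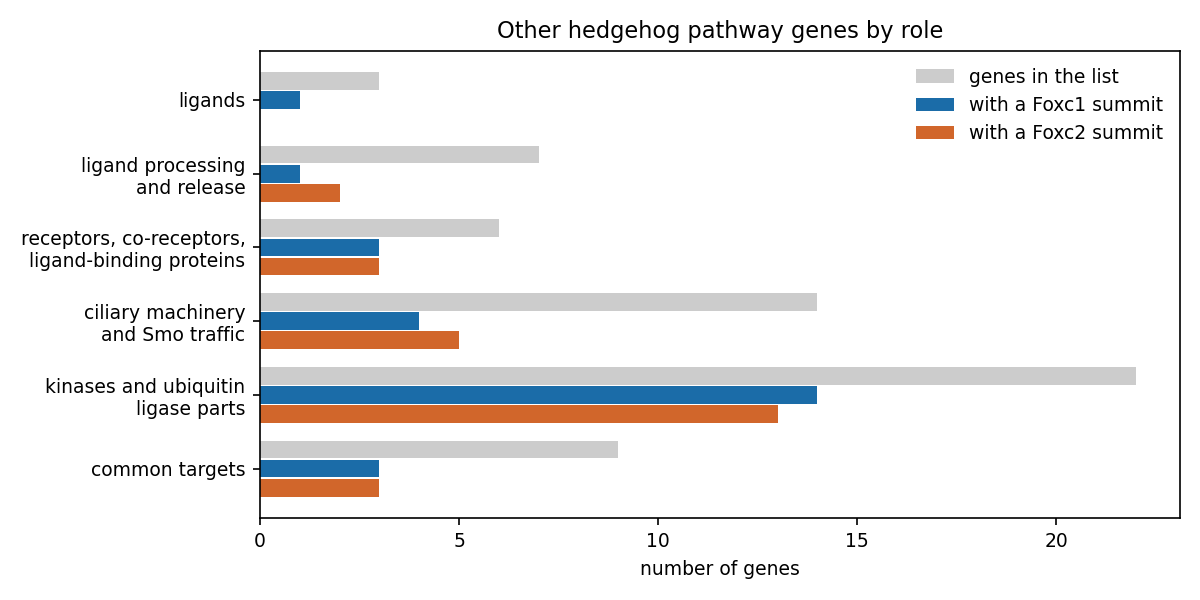
Number of genes (horizontal axis) in each role of the 61 further pathway genes (grey), with the number near a Foxc1 summit (blue) and near a Foxc2 summit (orange). Bars for kinases and ubiquitin ligase parts reach 14 and 13 of 22, and those for ligands 1 and 0 of 3.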

How the data were processed

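The submitters' processing notes name Bowtie2 (a read aligner), MACS2 (a peak caller) and the build mm10. Their versions and settings, the control and any pooling were not given in the sources used here. For each peak the deposited lists hold a fold (the ratio of summit signal to local background), a minus log10 p-value, a minus log10 q-value (−log10) and the summit's offset, all from the authors' peak caller. They hold 5213 and 2881 peaks, of which 5207 and 2878 on the main chromosomes were used. Folds ranked peaks within a list only.

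Gene spans and promoters came from RefSeq tables of GRCm38.p6. Protein-coding genes were given every summit in the span or within 50 kb, and overlap meant 1 shared bp. Words were searched on both strands of 300-base promoters, AACAAAG being added later. The assignment was tested on planted summits. Python 3.11.15 and pandas 2.3.3 were used.

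The members, the lists and the rule for naming genes were chosen with earlier results of these data known. Named were the 7 genes with all their peaks and the nearest summits beyond the margin, genes near those peaks, further pathway genes with both antibodies, 3 or more peaks of one, or a ligand or receptor role, and the 5 genes most like Smo. Actr1a, Mfsd13a and Arl3 also lay near peaks of Sufu. Other names were added after their values were seen. The results of 2 further pathway genes are not reported here, although the counts include them. Alternatives changed the distance, the peak threshold, the assignment, the overlap and the ranking value.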

Additional observations from a re-analysis of the deposited data

How the results depend on the processing

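Of 21 alternative values, 6 counts moved by more than 1.5 times. The Foxc1 count of 3 of the 7 genes became 5 with summits counted up to 100 kb away (42.6% of all genes), when Ptch1 and Gli1 entered. The Foxc2 count of 4 became 2 within 10 kb, inside the gene span alone and with the nearest gene alone (12.7, 7.58 and 10.1% of all genes), when Gli1 and Sufu dropped out. With peaks of fold 5 or more it was 3, without Ptch1 (3.90% of all genes). The overlap at Smo held in all 3 alternatives, and its Foxc1 rank of 35 by fold was 40 by minus log10 q. Within 10 kb, 16 of the 61 further pathway genes had a Foxc1 summit in place of 26 of 61, and 15.2% of all genes had one. For Foxc2 the count was 17 of 61 in place of 26 of 61, and the share of all genes was 12.7%. No paired analysis was possible because each antibody has 1 library. Depth is unknown, so a site without a peak may be one that was not detectable.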
